A study of Homo sapiens with 6 samples.

Results

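A group of 9 genes of the Wnt pathway was followed in the human mesothelioma cell line NCI-H226, grown either as monolayers or as spheroids. They are the ligands WNT5A, WNT5B and WNT7B, the secreted antagonists DKK1, DKK3 and SFRP1, the feedback target AXIN2, and the transcription factors LEF1 and TCF7L2. The members were taken by name, as all probe sets annotated to these genes, which gave 32 of the 54675 probe sets on the Affymetrix U133 Plus 2.0 array of human transcripts. All 32 carried 1 gene symbol, and all 9 genes were measured. The study compared 3 monolayer with 3 spheroid cultures, labelled as biological replicates, on 1 array per culture. Monolayers were adherent cultures in RPMI 1640 with fetal bovine serum, the medium given for both groups, and their time in culture before RNA was taken is not given in the sources used here. For spheroids the same cells were detached, seeded at 10000 cells per well on a poly-HEMA coating that prevents attachment, spun together and kept for 24 hours, with no matrix added. Both groups come from the same established line, and how many spheroids were pooled for 1 array is not given in the sources used here. The groups also differ in detachment and centrifugation, which cannot be told apart from the 3D form.

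Wnt ligands are secreted lipid-modified glycoproteins that bind Frizzled receptors. In the canonical branch, LRP5 or LRP6 joins the receptor, the destruction complex of APC, AXIN and GSK3 is held off, and β-catenin enters the nucleus to switch on genes through the TCF/LEF factors. WNT5A and WNT5B mostly act outside this branch, through receptors such as ROR1 and ROR2 that steer polarity and movement, and WNT5A can oppose β-catenin signaling. DKK1 blocks the LRP co-receptors, SFRP1 binds Wnt proteins directly, and AXIN2 is transcribed in answer to β-catenin and then limits it. In mesothelioma, silencing of secreted Wnt antagonists is a known feature.

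The deposited values are MAS5 signal intensities on a linear scale, and each array has the same trimmed mean. For the tests, signals were transformed to log2 and centred on the median of the array, and 54613 probe sets were compared by limma. A probe set was called when its Benjamini-Hochberg adjusted p over all of them was under 0.05. Signals below are as deposited, given in the order of replicates 1, 2 and 3 and as mean ± SD (n = 3). Fold changes are differences of mean centred log2 values, spheroids minus monolayers, with the standard error (SE) of the fit. Signals of different probe sets are not comparable with each other.

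The arrays correlated at 0.937 to 0.950 within the groups and at 0.926 to 0.933 between them. Monolayer 1 gave the lowest of the former values (0.937 and 0.939, where monolayers 2 and 3 reached 0.950), and it decides several results below, which are therefore given with and without it. Monolayer 1 was singled out after the values had been seen, and fits without it rest on monolayers 2 and 3 alone. Calls made without it are therefore descriptions. The mesothelial marker list (MSLN, CALB2, WT1, KRT5, THBD, UPK3B, UPK1B, PDPN and LRRN4) lay above the array median level for all 9 genes. Its summed signal was 12774 in monolayer 1, 5644 and 5034 in monolayers 2 and 3, and 8472 to 11561 in spheroids. This sum, and those of the lists below, mainly follow the brightest probe sets of a list. Calretinin (CALB2) read 1582, 163 and 83.6 in monolayers and 2238, 1317 and 1765 in spheroids. In this list 1 gene passed, podoplanin (PDPN), at 564 ± 264 in monolayers and 1251 ± 105 in spheroids (adjusted p = 0.0396 by limma). UPK1B, with the highest mean level of the list over all arrays, was 2552 ± 782 in monolayers against 1584 ± 251 in spheroids (log2 fold change -0.80, adjusted p = 0.0552 by limma), and THBD was 192 ± 136 and 79.0 ± 21.9 (log2 fold change -1.24, adjusted p = 0.109 by limma). The groups did not overlap for PDPN, UPK1B or THBD. Of 7 fibroblast markers 1 was called, PDGFRA, at 4.72 ± 2.59 and 64.9 ± 36.8 (adjusted p = 0.00514 by limma). The summed fibroblast list was 1515 to 2383 in monolayers and 1977 to 2257 in spheroids, with COL1A1 (1024 to 1611) and THY1 (369 to 748) as its highest values, while COL1A2 stayed between 3.74 and 7.97 on every array. None of 5 leukocyte and 5 endothelial markers was called. Their sums were 115 to 134 and 234 to 474 in monolayers against 162 to 185 and 171 to 222 in spheroids, and ITGAM and TIE1 had the highest mean levels. The endothelial sum of 474, in monolayer 1, came mostly from KDR at 422, where TIE1 read 19.3. KDR read 13.6 and 8.35 in monolayers 2 and 3 and 14.4 to 61.2 in spheroids. Every spheroid lay above every monolayer for PTPRC, CD3E, CD14 and VWF. Their means were 3.92, 11.2, 21.0 and 3.17 in monolayers and 13.1, 18.0, 44.0 and 16.8 in spheroids. The groups overlapped for the other leukocyte and endothelial markers, of which ITGAM, CDH5 and KDR had negative log2 fold changes. In RNA of whole cultures, fewer cells of a kind and less RNA per cell cannot be told apart. The ACTB 3' to 5' signal ratio, a measure of RNA integrity, was 1.09, 1.09 and 1.11 in monolayers and 1.11, 1.18 and 1.23 in spheroids (p = 0.1 by an exact permutation test, two-sided, where no smaller p is possible with 3 arrays a group). The GAPDH 3' to 5' ratio was 0.914, 0.882 and 0.887 in monolayers and 0.900, 0.914 and 0.890 in spheroids, with overlap (p = 0.6 by the same exact permutation test). The part of the marker differences and of the ACTB ratio in the results below was not tested.

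Of the 32 probe sets of the Wnt genes, 2 were called, AXIN2 upwards and WNT7B downwards, which is 6.25% of them. Over all probe sets tested 9.43% were called, 2.78% higher and 6.65% lower in spheroids, so the share among the Wnt genes was no larger than the background. The groups did not overlap at 5 of the 32 (15.6%), against 27.8% of all probe sets. The median log2 fold change was -0.14 over the 32 and -0.08 over all probe sets. At an unadjusted p under 0.05 limma gave 5. Of the 32 probe sets, 14 lay at or below the median level of the array, and 4 had a group mean under a signal of 3.11, the 20th percentile, where changes are poorly measured. Signal over background is not known for these values.

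**Figure D1:**
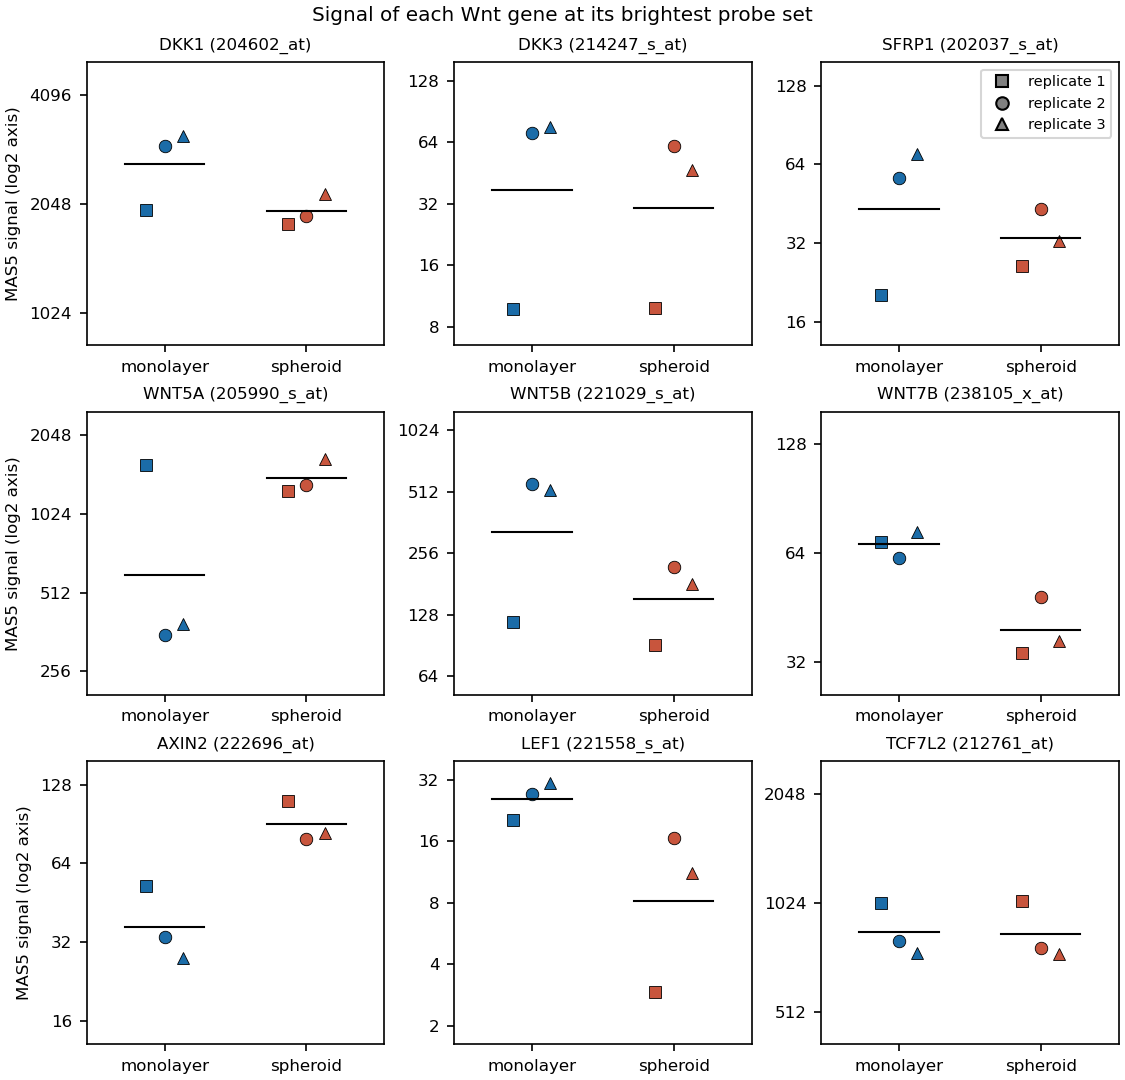
Deposited MAS5 signal (log2 axis, with a different range in each panel) of the 9 Wnt genes on each array, at the probe set of highest mean level. Points are single arrays with the replicate number as symbol, and lines are geometric means of the 3 arrays of a group. All spheroids lie above all monolayers for AXIN2 and below them for WNT7B and LEF1, of which LEF1 was not called. Monolayer 1 lies with the spheroids for WNT5A and WNT5B. Both replicate 1 arrays lie low for WNT5B, DKK3 and SFRP1 and high for TCF7L2.

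**Figure D2:**
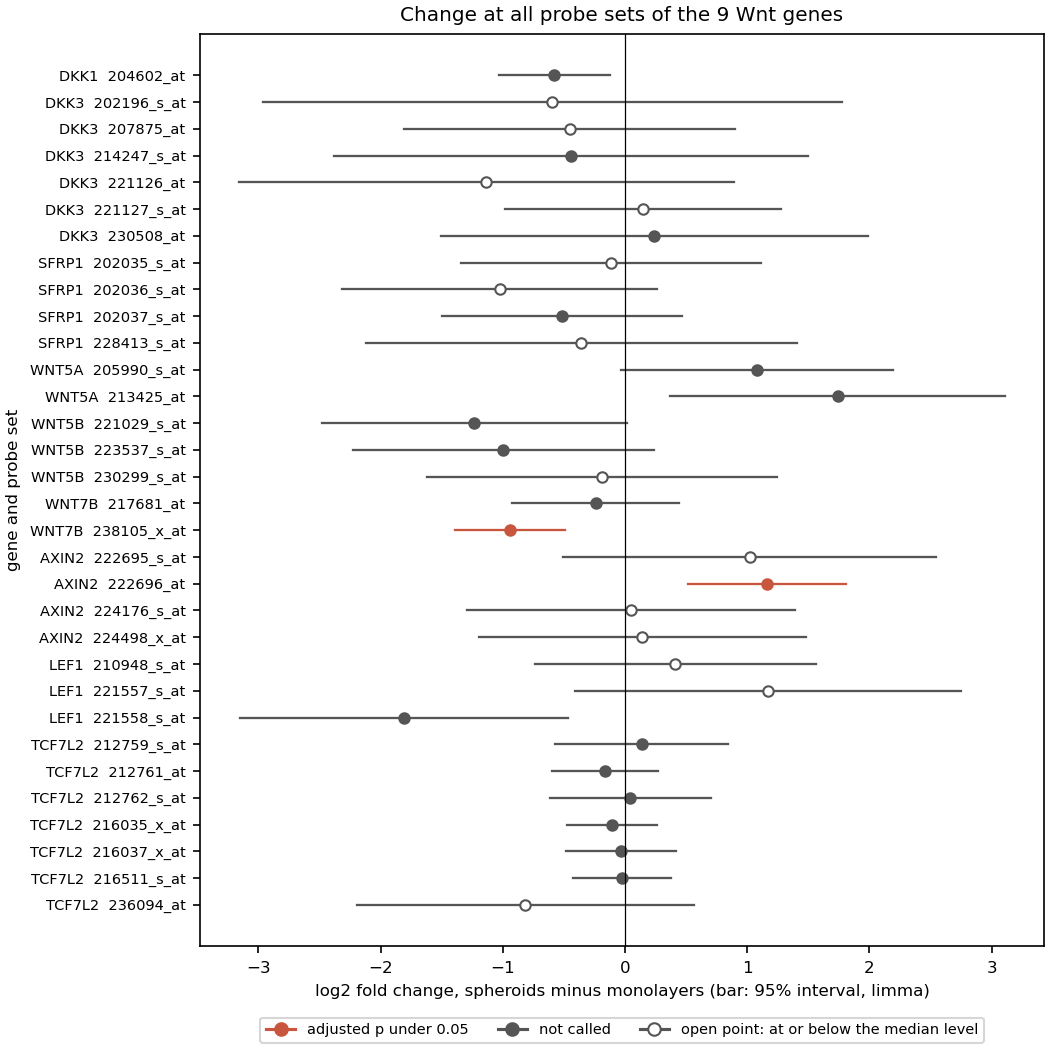
Log2 fold change, spheroids minus monolayers, at each of the 32 probe sets of the 9 Wnt genes, with the 95% interval from limma. Open points are probe sets at or below the median level, and red marks the 2 called probe sets, AXIN2 222696_at at 1.16 and WNT7B 238105_x_at at -0.94.

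WNT5A was about as high in 1 monolayer as in the spheroids and several times lower in the other monolayers. At the probe set 205990_s_at its signal was 1582, 351 and 387 in monolayers and 1253, 1317 and 1663 in spheroids. At 213425_at it was 1050, 189 and 148 in monolayers and 1046, 1120 and 1267 in spheroids. Both probe sets showed the same order: monolayer 1 lay within the range of the spheroids, and monolayers 2 and 3 lay far below all other arrays. Monolayer 1 was 4.29 and 6.23 times the mean of the other monolayers at the respective probe sets. With all arrays the log2 fold changes were 1.08 (SE 0.49, adjusted p = 0.238 by limma) and 1.74 (SE 0.61, adjusted p = 0.120 by limma), and neither was called. Without monolayer 1, singled out after the values had been seen, both were called, at 1.78 (SE 0.18, adjusted p = 0.000544 by limma) and 2.62 (SE 0.17, adjusted p = 8.7e-05 by limma). Leaving out any other single array gave 0.70 to 1.20 and 1.21 to 1.83, with no call.

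WNT5B, the closest relative of WNT5A, was lower in all spheroids than in monolayers 2 and 3 at its brighter probe sets. At 221029_s_at its signal was 118, 559 and 525 in monolayers and 91.2, 218 and 182 in spheroids. At 223537_s_at it was 15.4, 73.0 and 55.4 in monolayers and 14.6, 28.3 and 25.7 in spheroids. Here too monolayer 1 lay within the spheroids, and the other monolayers lay above all of them. Unlike at WNT5A, both replicate 1 arrays were also the lowest arrays, at each of these WNT5B probe sets. The log2 fold changes were -1.23 (SE 0.55, adjusted p = 0.228 by limma) and -0.995 (SE 0.55, adjusted p = 0.335 by limma) with all arrays, and neither was called. Without monolayer 1 both were, at -1.96 (SE 0.28, adjusted p = 0.00241 by limma) and -1.68 (SE 0.33, adjusted p = 0.00988 by limma). No other array changed a call when left out, with ranges of -1.41 to -0.84 and -1.15 to -0.55. The remaining probe set, 230299_s_at, was dim (3.23 to 11.3 over all arrays), and its log2 fold change was -0.19 (SE 0.64).

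**Figure D3:**
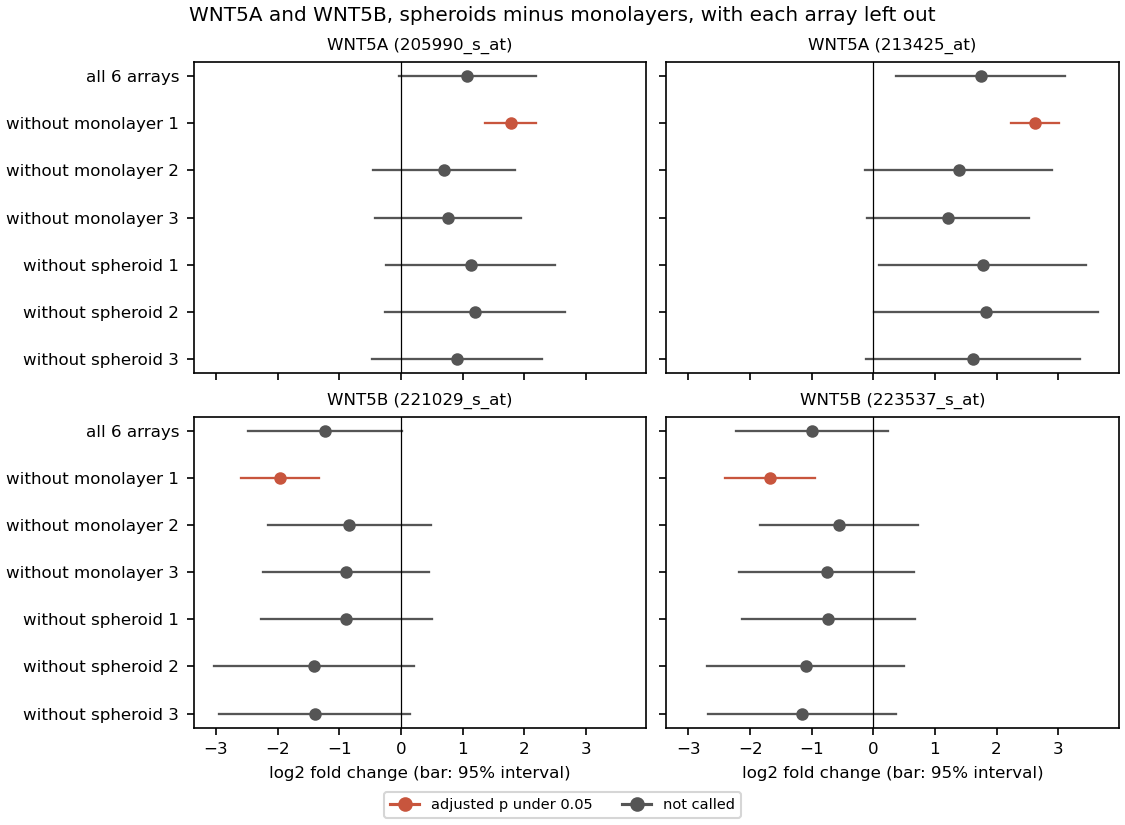
Log2 fold change of WNT5A and WNT5B, spheroids minus monolayers, at their brighter probe sets, with all 6 arrays and with each array left out in turn. Bars are 95% intervals from limma and red marks an adjusted p under 0.05; only the fits without monolayer 1 are called, at 1.78 and 2.62 for WNT5A and at -1.96 and -1.68 for WNT5B.

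Without monolayer 1, 8 of the 32 probe sets were called, 3 higher and 5 lower in spheroids, where 12.0% of all probe sets were. They were both of WNT5A, the 2 of WNT5B above, 1 each of AXIN2 and WNT7B, and 1 each of DKK1 and SFRP1. Monolayer 1 lay within the range of the spheroids while both other monolayers lay beyond it on the same side at 9 of the 32 probe sets, from DKK1, DKK3, WNT5A, WNT5B and LEF1, and at 4913 of the 54613 probe sets tested. This description was set up after the values had been seen, and probe sets of the same gene are not independent, so it carries no test.

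WNT7B, a ligand that usually signals through β-catenin, was lower in spheroids at 1 of its 2 probe sets. At 238105_x_at its signal was 68.8, 62.3 and 73.4 in monolayers and 34.0, 48.4 and 36.6 in spheroids, without overlap. The means were 68.1 ± 5.60 and 39.7 ± 7.72, a log2 fold change of -0.94 (SE 0.20, adjusted p = 0.0191 by limma), or 1.92-fold lower. At 217681_at the signal was 46.4, 49.1 and 25.5 in monolayers and 38.4, 34.5 and 36.2 in spheroids, with the spheroids inside the monolayer range (log2 fold change -0.24, SE 0.30, adjusted p = 0.723 by limma). The suffix x marks a probe set some of whose probes may also match other transcripts. The call was lost on the values as deposited, at a log2 fold change of -0.79, without the mean-variance trend, and without monolayer 2 or 3 or spheroid 1 or 3 (log2 fold changes of -0.87 to -1.001).

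DKK1 had a lower signal in all spheroids than in monolayers 2 and 3, and with all arrays it was not called. It read 1971, 2955 and 3147 in monolayers and 1802, 1898 and 2181 in spheroids. Monolayer 1 again lay inside the range of the spheroids. The log2 fold change was -0.58 (SE 0.20, adjusted p = 0.119 by limma), with a 95% interval of -1.03 to -0.12 before adjustment. Without monolayer 1 it was -0.79 (SE 0.17, adjusted p = 0.0161 by limma) and called.

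DKK3, a divergent Dickkopf family member, was low in both replicate 1 cultures at 2 of its 6 probe sets. At 214247_s_at, the brightest of them, the signal was 9.72, 70.9 and 75.9 in monolayers and 9.87, 61.5 and 46.6 in spheroids. At 202196_s_at it was 3.02, 25.3 and 31.1 in monolayers and 2.31, 21.9 and 18.5 in spheroids. In both the replicate 1 arrays of either form were low, and the other 4 arrays lay close together. The log2 fold changes were -0.44 (SE 0.86) and -0.59 (SE 1.05), with intervals from -2.38 to 1.5 and from -2.96 to 1.77. Without spheroid 1 they turned to 0.34 and 0.42, and without monolayer 1 they moved to -1.41 and -1.67 (adjusted p = 0.189 and 0.263 by limma), with no call. At 230508_at monolayer 1 was low at 3.03, while spheroid 1, at 18.5, lay among the others, and the log2 fold change turned from 0.24 to -0.77 without monolayer 1 (adjusted p = 0.274 by limma). The remaining 3 probe sets of DKK3 did not exceed 12.5 on any array. No DKK3 probe set was called with all arrays (adjusted p from 0.530 to 0.909 by limma). Both replicate 1 arrays lay beyond the other 4 on the same side at 11 of the 32 probe sets, 5 of them TCF7L2, and at 14.3% of all probe sets.

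SFRP1 was not called at any of its 4 probe sets with all arrays. At 202037_s_at, its brightest probe set, the signal was 20.2, 56.5 and 69.9 in monolayers and 26.1, 43.4 and 32.7 in spheroids. Both replicate 1 arrays lay below the other 4, and the groups overlapped. The log2 fold change was -0.51 (SE 0.43, adjusted p = 0.561 by limma), and without monolayer 1 it was -1.06 (SE 0.26, adjusted p = 0.0257 by limma) and called. That fit keeps the low spheroid 1, and without spheroid 1 the log2 fold change was -0.37 (adjusted p = 0.755 by limma). Its other 3 probe sets stayed between 2.19 and 21.9 over all arrays, had log2 fold changes of -0.11, -1.03 and -0.36, and were not called.

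AXIN2, the negative feedback gene of β-catenin signaling, was higher in spheroids. At 222696_at its signal was 52.4, 33.3 and 27.8 in monolayers and 111, 79.5 and 83.6 in spheroids. Every spheroid lay above every monolayer, with means of 37.9 ± 12.9 and 91.3 ± 17.0. The log2 fold change was 1.16 (SE 0.29, adjusted p = 0.0358 by limma), or 2.24-fold, with a 95% interval of 0.52 to 1.81. At 222695_s_at, which was dim (2.60, 4.81 and 3.24 against 15.1, 3.78 and 8.08), it was 1.02 (SE 0.68, adjusted p = 0.438 by limma). The other 2 probe sets did not exceed a signal of 4.36 and had log2 fold changes of 0.05 and 0.14. The call at 222696_at was lost without the trend, with low signals raised to the 20th percentile, by the methods' t-test after adjustment, and without any single array other than monolayer 1, with log2 fold changes between 0.96 and 1.33 when an array was left out.

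The 3 probe sets of LEF1 did not give the same direction. At 221558_s_at the signal was 20.3, 27.4 and 30.9 in monolayers and 2.91, 16.6 and 11.2 in spheroids, and every spheroid was below every monolayer (log2 fold change -1.81, SE 0.59, adjusted p = 0.0993 by limma). At 221557_s_at it was 9.94, 2.69 and 2.28 in monolayers and 5.41, 14.7 and 11.9 in spheroids, with overlap (log2 fold change 1.17, SE 0.70, adjusted p = 0.382 by limma). At 210948_s_at it was 4.23, 3.99 and 4.68 in monolayers and 5.08, 8.85 and 5.59 in spheroids (log2 fold change 0.41, SE 0.51, adjusted p = 0.713 by limma). No LEF1 probe set was called, and all 3 were near or below the median level of the array. Without spheroid 1 the first of these moved to -1.09.

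TCF7L2, the TCF factor that is measured here by 7 probe sets, was close to even between the groups. At 212761_at its signal was 1021, 804 and 743 in monolayers and 1034, 769 and 739 in spheroids (log2 fold change -0.16, SE 0.19, adjusted p = 0.697 by limma). The 95% interval ran from -0.60 to 0.27, so a 2-fold change in either direction lay outside it. At the other 5 probe sets above the median level the log2 fold changes lay between -0.11 and 0.14 (adjusted p from 0.773 to 0.957 by limma), and the widest of their intervals ran from -0.62 to 0.70 and from -0.57 to 0.84. On the values as deposited or after quantile normalization, 4 of the 7 probe sets changed sign, to at most 0.14. The last one, 236094_at, was below a signal of 2 on every array.

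The TCF/LEF core sequence was looked for upstream of the members, since LEF1 and TCF7L2 bind it. RefSeq promoters (GRCh38.p14, 250 bases before to 50 after a start) were at hand for 5 of the 9 genes, DKK1, WNT5A, WNT5B, LEF1 and TCF7L2, with 9 starts among them. The core CTTTGAT, on either strand, was in 0 of these 9 promoters and in 2.62% of all 35116 promoters. The variant CTTTGTT was in 2 of the 9 and in 5.2% of all, and the 2 matches are shown with the bases around them, 5′ to 3′ on the strand of the gene, the match in capitals. They lie 76 bases before the start of DKK1 (chr10:52314185-52314231, plus strand) and 133 bases before the second of 3 starts of TCF7L2 (chr10:113126480-113126526, plus strand).
DKK1: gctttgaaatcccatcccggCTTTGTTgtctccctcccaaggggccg
TCF7L2: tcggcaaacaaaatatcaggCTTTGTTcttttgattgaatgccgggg
Only CTTTGAT and CTTTGTT were searched, and other forms, such as the ctttgaa in the flank of the DKK1 match, were not counted. A match of letters describes the sequence and does not show that a factor binds there.

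Among the other genes of the pathway, few differed between spheroids and monolayers. For each gene the brightest of its probe sets was used. Of 109 genes measured out of 114 listed, 2 were higher, 7 were lower and 100 did not pass limma, which is 8.26% called, against 13.1% of all 19775 genes read in this way (3.88% higher and 9.22% lower). Their median log2 fold change was -0.04, and that of all genes was -0.06.

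Among receptors and polarity genes, 4 were lower in spheroids. ROR2, a receptor for WNT5A, read 119, 104 and 95.7 in monolayers and 45.1, 28.7 and 21.9 in spheroids (log2 fold change -1.94, SE 0.28, adjusted p = 0.00372 by limma). FZD2, a Frizzled receptor, fell from 938 ± 42.7 to 626 ± 84.3 (adjusted p = 0.0236 by limma), and the other 14 of the 16 secretion and receptor genes did not pass, with a median log2 fold change of -0.25 for the list. SCRIB, a polarity scaffold, read 854, 678 and 717 in monolayers and 357, 390 and 331 in spheroids (log2 fold change -1.20, SE 0.13, adjusted p = 0.00120 by limma). PRICKLE1, a core planar polarity gene, fell from 174 ± 17.4 to 92.7 ± 26.7 (adjusted p = 0.0174 by limma). These were the only 2 of the 15 genes of the polarity and calcium branch that passed.

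Targets and inhibitors of the canonical branch were mixed. MYC and CCND1, which are β-catenin targets among many other inputs, fell from 1756 ± 72.3 to 1015 ± 108 and from 1377 ± 241 to 934 ± 61.4 (adjusted p = 0.00560 and 0.0237 by limma), and the other 16 of 18 measured targets did not pass. The R-spondin receptor LGR4 rose from 62.8 ± 5.85 to 121 ± 13.0 (adjusted p = 0.0257 by limma), the single call among 9 genes of its list. TNKS, the tankyrase that marks AXIN for degradation, rose from 228 ± 30.9 to 385 ± 46.8 (adjusted p = 0.0399 by limma), the single call among 16 genes of the Dishevelled and destruction complex list. WNT10B was lower, from 36.7 ± 1.19 to 14.5 ± 6.47 (adjusted p = 0.0225 by limma), as the single call among 14 other ligands, whose median log2 fold change was 0.37. Limma called 0 of 12 other antagonists and 0 of 13 TCF factors and cofactors, with KREMEN1 (log2 fold change 0.84, adjusted p = 0.235) and TLE4 (-0.65, adjusted p = 0.0827) nearest to it. Limma without the trend called 0 of the 109 genes, where the methods' t-test called 15 at an unadjusted p under 0.05 and 1 after adjustment. With any 1 array other than monolayer 1 left out, limma called 3 to 7 of them, with 0 higher in spheroids, so that the calls of LGR4 and TNKS were each lost (log2 fold changes of 0.68 to 0.86 and 0.50 to 0.67).

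**Figure D4:**
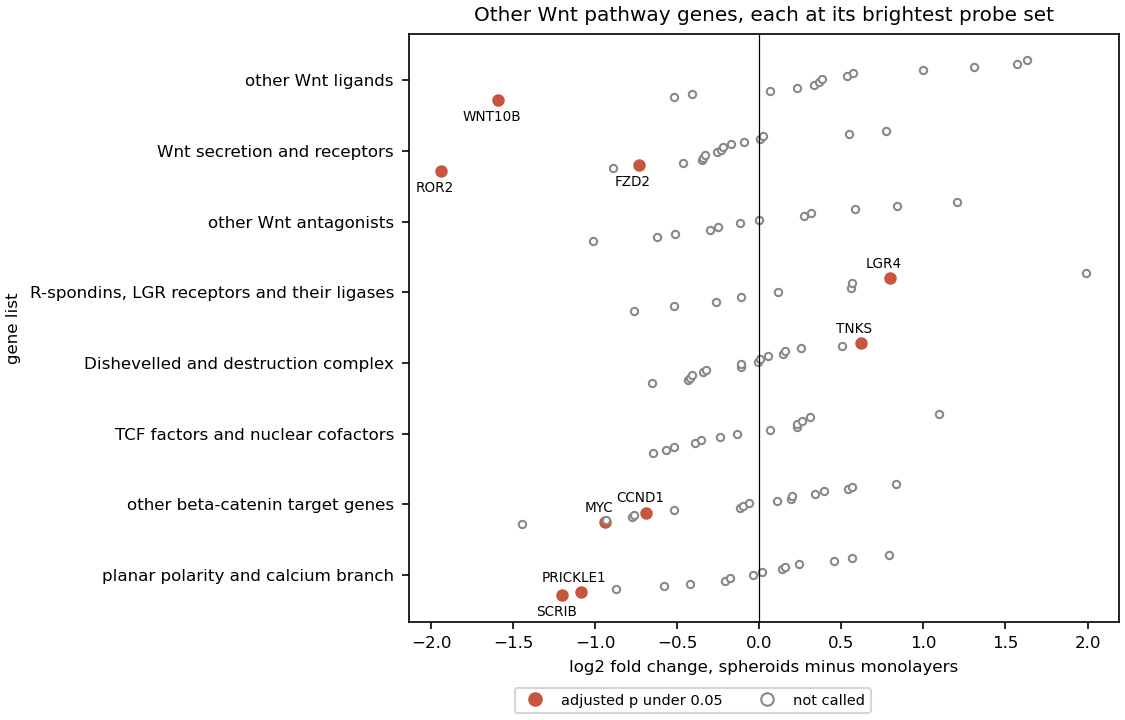
Log2 fold change, spheroids minus monolayers, of 109 other Wnt pathway genes in 8 lists, each gene at its brightest probe set. Filled red points are the 9 called genes, 7 to the left of zero and 2 (LGR4 and TNKS) to the right; RNF43, ZNRF3, LGR5 and NOTUM are drawn in each of the lists that hold them.

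Without monolayer 1, 20 of the 109 genes were called, 9 higher and 11 lower, where 16.4% of all genes were. All 9 called with all arrays were among the 20. Of those added, the ligands WNT10A and WNT4 had the same pattern as WNT5A. WNT10A read 296, 47.6 and 33.0 in monolayers and 328, 256 and 221 in spheroids (log2 fold change 1.63, adjusted p = 0.191 by limma with all arrays, and 2.60, adjusted p = 0.000308, without monolayer 1). WNT4 read 153, 53.5 and 28.1 in monolayers and 189, 144 and 175 in spheroids (1.31, adjusted p = 0.166 by limma with all arrays, and 1.97, adjusted p = 0.00262, without monolayer 1). WNT10A and WNT4 were chosen for mention after their values had been seen.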

How the data were processed

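Microarray signals of 3 monolayer and 3 spheroid cultures of NCI-H226 were used. The authors deposited signal intensities, made with MAS5 per their processing notes, and the values show equal trimmed means on all arrays. The methods also name a normalization to the median, which the deposited intensity values do not show (array medians 14.6 to 18.0). Signals were transformed to log2 and centred on the array median, with no pseudocount, floor or filter, and 62 control probe sets were left out. Spheroids were compared with monolayers at 54613 probe sets with limma 3.58.1 under R 4.3.3, with a mean-variance trend and Benjamini-Hochberg adjustment at a threshold of 0.05. The pipeline was tested on simulated data. The number of arrays limits the precision.

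Gene symbols came from the platform annotation, which gives 41097 probe sets 1 symbol, 1801 several and 11777 none. All 32 symbols matched current RefSeq symbols by gene ID. The Wnt genes and the lists were chosen with earlier results of these data known. Every probe set of the 9 genes is described. Of each pathway list, up to 4 called genes with the smallest adjusted p are named, or the nearest if none was called. Of each marker list, the called and the brightest genes are named. CALB2, KRT5, THBD, THY1, COL1A2, PTPRC, CD3E, CD14, VWF, CDH5, KDR, WNT10A, WNT4 and WNT2B fall outside this rule. Of the listed pathway genes, WNT3, WNT3A, PORCN, FZD8 and TCF7 have no probe set with 1 symbol here. The planned comparison of protein sequences was not run. Alternatives were other scalings, a floor, a filter, no trend, the methods' t-test, a replicate block, each array left out, and other ways to count genes.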

Additional observations from a re-analysis of the deposited data

How the results depend on the processing

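No call changed direction under any alternative. Of the 32 probe sets of the 9 Wnt genes, 15 changed sign under at least 1 alternative, none of them called in either setting, in DKK3, SFRP1, WNT5B (the dim 230299_s_at), AXIN2 (its 2 dimmest) and TCF7L2. With all arrays limma called 5149 of all probe sets (1519 higher, 3630 lower), 2 of the 32 probe sets of the 9 Wnt genes (1 higher, 1 lower) and 9 of the 109 other pathway genes (2 higher, 7 lower). Values as deposited, without centring, gave 2561 higher and 2863 lower calls over all probe sets, and 1 Wnt probe set, with 0 lower. The median log2 fold change over all probe sets was 0.07 as deposited and -0.08 after centring. Quantile normalization gave 2455 higher and 2967 lower. With signals under the 20th percentile raised to it, 967 probe sets were higher, 1 Wnt probe set was called, 0 higher, and 4 pathway genes were called, 1 higher and 3 lower. Among the 27306 probe sets above the median level, limma called 4541 lower. Of the 18 Wnt probe sets among them, 2 were lower, LEF1 221558_s_at being added. Limma without the trend called 457 (176 higher, 281 lower), with 0 Wnt probe sets and 0 pathway genes in either direction, where the methods' t-test gave 2 and 15 at an unadjusted p under 0.05. After adjustment the methods' t-test called 1241 (267 higher, 974 lower), 1 Wnt probe set, with 0 higher, and 1 pathway gene, with 0 higher and 1 lower. Unadjusted it called 10731 (3593 higher, 7138 lower) and 15 pathway genes (5 higher). Taking any probe set of a gene, 11 pathway genes were lower. Leaving out each array in turn gave 2438 to 6577 calls over all probe sets (632 to 2263 higher, 1612 to 4314 lower), 0 to 8 of the Wnt probe sets (0 to 3 higher, 0 to 5 lower) and 3 to 20 pathway genes (0 to 9 higher, 3 to 11 lower). The highest counts in these ranges came without monolayer 1. Of the Wnt probe sets, limma called 0 without monolayer 2, monolayer 3, spheroid 1 or spheroid 3, and 1 (WNT7B) without spheroid 2. Without monolayer 2, monolayer 3 or spheroid 3 it called 3 of the pathway genes. The replicate numbers of the titles were entered as a replicate block, which raised the calls over all 54613 probe sets to 6133. It gave 5 of the 32 Wnt probe sets (2 higher, 3 lower) and 17 of the 109 pathway genes (5 higher, 12 lower). WNT5A 213425_at, WNT5B 221029_s_at and LEF1 221558_s_at were the Wnt probe sets added. The labels do not say that a number marks a shared culture or day, and the study, which isolated RNA in independent experiments, does not tie the numbers to them. Deviations from the group means of arrays with the same number correlated at 0.09, -0.01 and 0.02, where those with different numbers gave -0.08 to 0.05. The value for the replicate 1 arrays, 0.09, was the highest of all. The numbers were not taken as pairs in the main fit, and whether same-numbered cultures share an origin was not tested. With 3 arrays a group, differences at probe sets near the bottom of the scale could not be measured well. The causes of these changes were not tested.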

Other observations

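WNT2B, a canonical ligand, set the replicate 1 cultures apart from the others. Its signal was 1171, 75.0 and 29.9 in monolayers and 656, 111 and 78.5 in spheroids, so both replicate 1 arrays lay above the other 4, and the groups overlapped (log2 fold change 0.23, SE 1.25, adjusted p = 0.947 by limma). Keratin 5 (KRT5), a mesothelial and squamous keratin, was ordered in the same way, at 1845, 130 and 79.3 in monolayers and 911, 267 and 290 in spheroids. Both replicate 1 arrays lay beyond the other 4 at 29 of the 109 other Wnt pathway genes (26.6%), against 14.8% of all genes read at their brightest probe set. They did so at 11 of the 32 probe sets of the 9 Wnt genes, 5 of them TCF7L2, against 14.3% of all probe sets. Probe sets of the same gene are not independent. These counts were made after the values had been seen, and no test was run on them. WNT2B and KRT5 were chosen after their values had been seen. A shared origin of the replicate 1 cultures is not stated in the labels and was not tested.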
